A study of Mus musculus with 15 samples.

Results

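Histone genes were examined in RNA sequencing of circulating extracellular vesicles (EVs), the small membrane particles that cells release into the blood. They were taken by symbol from the deposited read counts: symbols that begin with Hist and a numbered cluster (Hist1h to Hist4h), H1f, H2af or H3f3, without entries marked as pseudogenes in the symbol. This gave 87 of 43472 genes. Of these, 69 carried a Hist symbol and were taken as replication-dependent, and 18 were taken as replacement genes. All 87 were found in the GENCODE M21 annotation of mouse genome mm10, where the replacement group also holds an antisense RNA, H3f3aos, and the pseudogenes H3f3c and H2afy3, and the Hist group the annotated pseudogenes Hist1h2al and Hist1h2aj.

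The 15 libraries came from 3 samples of wild type (WT) C57BL/6 mice, 6 of dystrophic mice and 6 of hypertrophic mice, all aged 3 to 6 months, and each sample pooled the EVs of 2 to 3 mice. The dystrophic mice were Sgcb-null, lacking β-sarcoglycan, a membrane protein of muscle. The hypertrophic mice are Magic-F1 transgenics in the sample labels and Mstn-null mice, which lack myostatin, in the study's methods for this sequencing. The labels call the source serum, while the series' design text and the methods call it plasma. In replicates 4 to 6 of the dystrophic group and replicates 1 to 3 of the hypertrophic group, 6 libraries in all, the title carries the number of counts deposited for a sample of the other condition. Groups follow the labels here, and the comparisons of classes and of the genes described most fully are also given with the 6 exchanged or with only the 9 matching libraries.

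Histones are the proteins around which DNA is wound: H2A, H2B, H3 and H4 form the nucleosome core, and H1 binds the linker between cores. Replication-dependent histone genes are clustered, mostly lack introns and are expressed in S phase, and their mRNAs normally end in a conserved stem-loop in place of a poly(A) tail. Replacement histones are made outside S phase as well, from spliced or single-exon genes whose mRNAs are polyadenylated. The labels describe the RNA as poly(A) RNA, and the methods state that it was amplified before library preparation.

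Reads on genes ranged from 27227 to 32563362 between libraries, with dystrophic replicate 6 the deepest and WT replicate 1 the shallowest. A count of 0 allows up to 3 reads, which was 110 counts per 1000000 reads on genes (CPM) in WT replicate 1 and 0.0921 CPM in dystrophic replicate 6. This limit covers counting error only, since reads amplified by PCR are not independent molecules. The EV surface gene Cd9 had reads in all 15 libraries, at 3924 to 33354 CPM. Cd81 and Cd63 had reads in only 11 and 10, at medians of 109 CPM (0 to 596) and 15.2 CPM (0 to 551). Markers of red blood cells summed to 23451 to 157793 CPM and those of platelets to 9664 to 34025 CPM, while the 6 skeletal muscle markers summed to at most 228 CPM. Markers of monocytes, liver, B cells, neutrophils and T cells summed to at most 3432, 2181, 2068, 1836 and 493 CPM. Sgcb, the gene deleted in the dystrophic mice, had reads in only 1 library, a hypertrophic one, so it does not check the labels.

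The 3′ stem-loop is the feature that separates the classes by sequence, so it was searched for in the GENCODE M21 transcripts of every gene, on the transcript strand, as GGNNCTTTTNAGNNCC with 6 paired bases on either side of a 4-base loop. The forms found in the histone genes counted most often are shown, with the loop in capitals.
Hist1h1c, Hist3h2a and Hist1h2be: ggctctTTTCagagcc
Hist1h4c, Hist1h4h and Hist1h4n: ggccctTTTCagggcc
Hist1h4i: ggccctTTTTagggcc
H2afx: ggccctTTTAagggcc

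The first form was shared by 26 histone genes, of which 4 had at least 10 reads in some library. The second was shared by 7, all H4 genes, of which 3 reached 10 reads. In all, 45 histone genes held a stem-loop, 44 of the 69 Hist genes and 1 of the 18 replacement genes, H2afx, which encodes the H2A.X variant that is phosphorylated at DNA breaks. Only 50 of 55341 annotated genes, 0.0903%, held one, so 5 were not among the 87. Hist1h2bc, the most abundant Hist gene in these libraries, held none in its single annotated transcript, which has 2 exons. Other Hist genes without one include short annotated transcripts, such as Hist1h2bn with 381 bases and Hist1h4k with 312. A stem-loop past an annotated end would be missed, so 44 of 69 describes the annotation.

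Annotated transcripts often ran on past the stem-loop. In Hist1h1c 840 bases followed it, in Hist1h4i 330, in Hist3h2a 1643, in Hist1h2be 1861 and in Hist1h4c 454. Among the 11 stem-loop genes with at least 10 reads in some library, the shortest such extension of a gene had a median of 365 bases (23 to 1861). In 7 it exceeded 100 bases. Among the other 34 stem-loop genes the median was 65.5 bases (3 to 4884), and 16 exceeded 100 bases. The ranges overlapped widely. The polyadenylation signal AATAAA stood in the last 50 bases of a transcript in 4 of 15 Hist genes with at least 10 reads and in 11 of the other 54, compared with 9 of 10 and 1 of 8 replacement genes. These annotated ends describe the reference, and the counts do not show where the RNA in the EVs ended.

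Many histone genes are near copies of each other, which bears on counts of 50-base reads. A median of 45.0% of the 50-base windows of a Hist gene occurred in no other annotated gene, against 91.2% for a replacement gene. For 20 Hist genes it was under 20%, and for 5 of these it was 0. A window counted as shared on either strand, also where another annotated gene overlaps the same place. Gm20628, for example, overlaps Hist2h2bb and Hist2h3b, both at 0. The share thus mixes near copies with overlapping annotation, and a shared window need not align to several places. Hist genes with at least 10 reads had a median of 54.2%, and the others 41.3%. The values of the 4 genes found most often were 69.4% for Hist1h2bc, 91.5% for Hist1h1c, 72.9% for H3f3a and 93.1% for H3f3b. The deposited tally of alignments to several places was 46618 to 36754333 per library and is kept apart from the gene counts. A low or zero count of a Hist gene with few windows of its own is therefore uncertain, and it cannot be told apart from missing RNA.

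**Figure D1:**
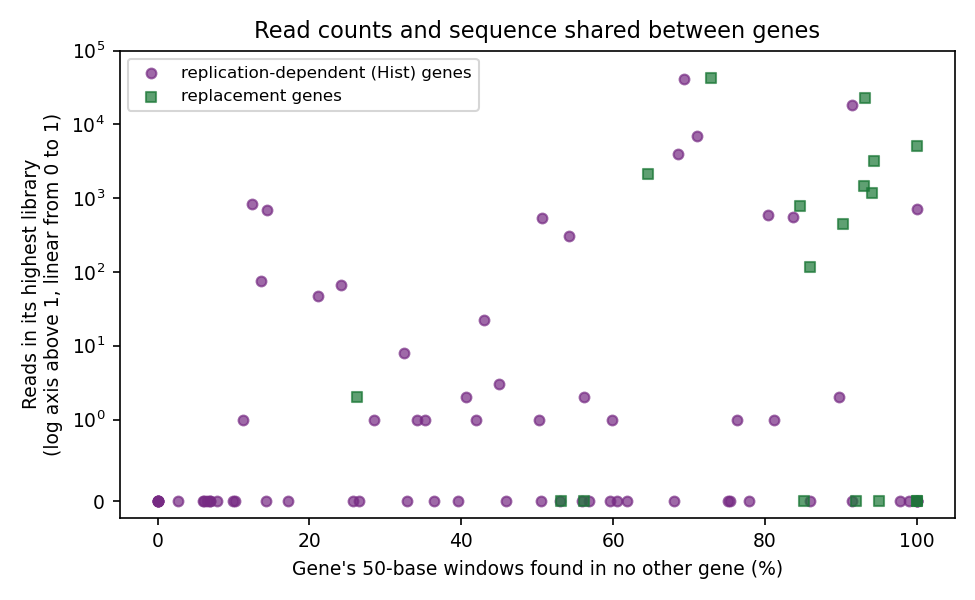
Highest read count of each of the 87 histone genes in any library (vertical axis, logarithmic above 1) against the percentage of its 50-base windows found in no other annotated gene (horizontal axis). Circles are Hist genes and squares are replacement genes; of the 20 Hist genes under 20%, 3 reached 10 reads.

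At least 1 read was found for 40 of the 87 genes. They were 29 of 69 Hist genes, 42.0%, and 11 of 18 replacement genes, 61.1%, while 53.1% of the 20729 protein-coding genes in the counts had a read somewhere. Unlike that set, both classes include annotated pseudogenes, and the replacement class an antisense RNA. Of all genes in the counts 30.55% had a read. With a minimum of 10 reads in some library, 15 Hist genes (21.7%) and 10 replacement genes (55.6%) remained, against 51.4% of protein-coding genes. The remaining 14 detected Hist genes never reached 10 reads, 40 Hist genes were at 0 throughout, and 7 replacement genes were at 0.

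By family, the H1 genes gave 1 of 6 Hist members, Hist1h1c, and 2 of 4 replacement members, H1f0 and H1fx. Reads were found for 8 of 20 Hist H2A genes, 11 of 18 H2B, 2 of 12 H3 and 7 of 13 H4. All 3 replacement H3 genes, including pseudogene H3f3c with at most 2 reads per library, and 6 of 10 replacement H2A genes were found. The reads were less even than these numbers. Over all libraries, replacement H3 held 132870 reads and Hist H2B 97589, but Hist H3 held only 1369, all in dystrophic replicate 6 (Hist1h3i and Hist1h3f). Hist H1, H4 and H2A held 42294, 14357 and 5239 reads. These sums are dominated by the deepest library and do not compare levels between families.

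Only H3f3a, H3f3b and Hist1h2bc had reads in all 15 libraries, as did 0.772% of protein-coding genes, and Hist1h1c had reads in 12. These 4 genes held between 71.7% and 100% of the histone reads of a library. In contrast, 13 histone genes were found in a single library, and 8 of these had under 4 reads there. Dystrophic replicate 6 held 30 histone genes, 6 of them found only in it. The heat map shows this pattern of few constant and many sporadic genes.

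**Figure D2:**
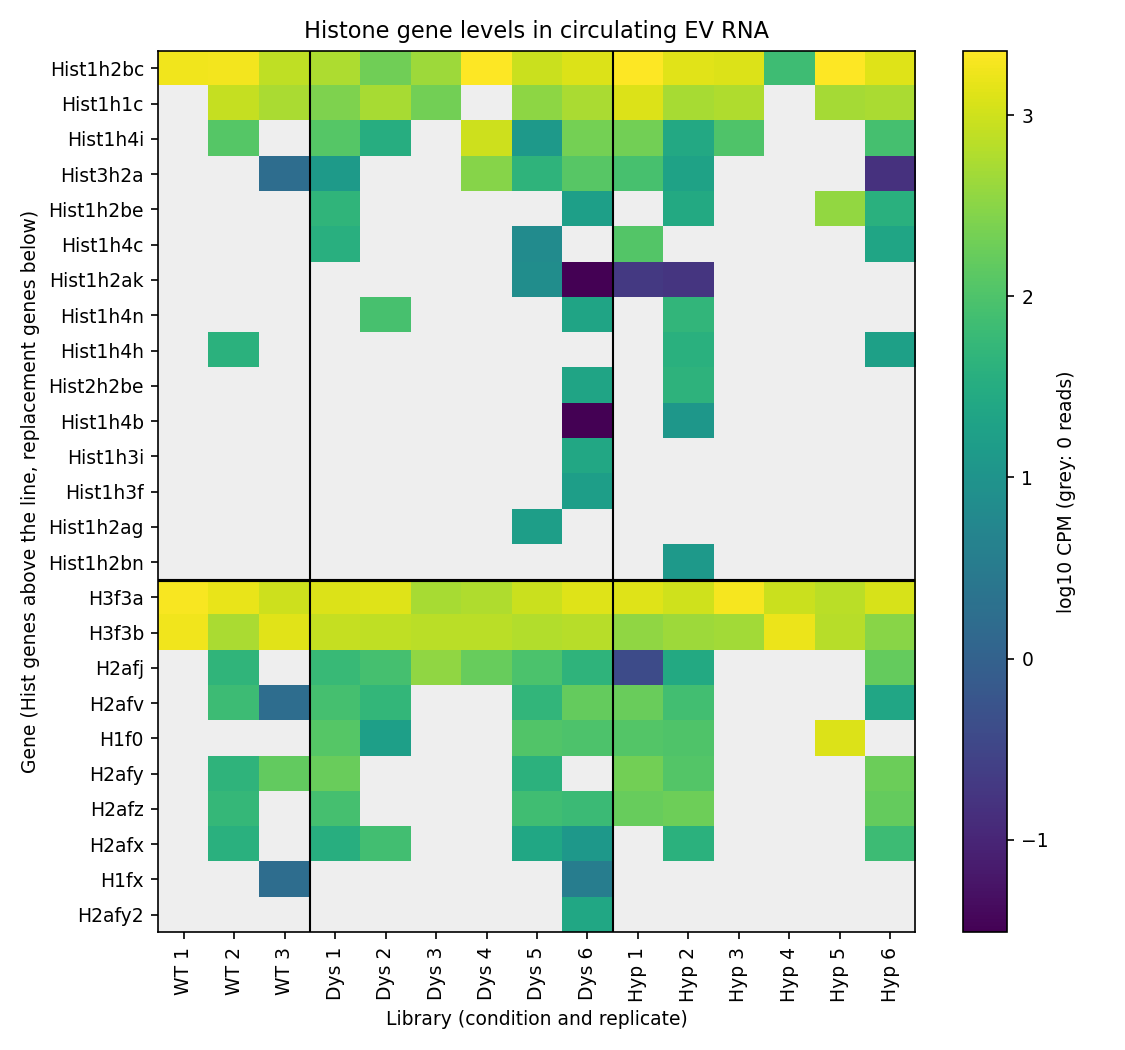
Level of the 25 histone genes with at least 10 reads in some library in each of the 15 libraries, with genes stacked and libraries side by side, as log10 CPM with 0 reads in grey. Genes above the line are Hist genes and those below are replacement genes; H3f3a, H3f3b and Hist1h2bc are the ones with reads in every library.

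Detection was close to all or nothing. Of the 1305 values (87 genes in 15 libraries), 1127 were 0. Of the 178 others, 34 were 1 to 3 reads, 143 were 16 reads or more, and only 1 lay between 4 and 15 reads, which is 0.562%. Over all genes 3.94% of the values above 0 lay there. Hist1h4i, for example, was at 0 in dystrophic replicate 3 with 2680782 reads on genes and at 1544 reads in dystrophic replicate 4 with 1608699. The deeper of this pair was the one at 0.

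The number of Hist genes found per library was 1, 8 and 3 in WT, had a median of 5 (3 to 20) in dystrophic and a median of 6 (1 to 13) in hypertrophic. Replacement genes numbered 2, 8 and 5 in WT, with medians of 7 (3 to 10) in dystrophic and 5 (2 to 8) in hypertrophic. The means were 4 ± 3.61 (SD, n = 3), 7.5 ± 6.53 (n = 6) and 6.5 ± 4.81 (n = 6) for Hist genes and 5 ± 3, 6.33 ± 2.88 and 4.83 ± 2.79 for replacement genes. The conditions overlapped in both classes and the means differed by less than 1 SD. As mean shares, these were 5.80%, 10.9% and 9.42% of Hist genes in WT, dystrophic and hypertrophic. For replacement genes they were 27.8%, 35.2% and 26.9%. The mean share of all genes found was 6.61%, 11.6% and 7.23%, so dystrophic was highest there too. Single libraries weighed on the Hist means, since the WT mean was 2 without replicate 2 and 5.5 without replicate 1, and the dystrophic mean was 5 without replicate 6. With only the matching libraries the Hist means were 4.33 ± 1.53 (SD, n = 3) in dystrophic and 4.67 ± 4.73 (n = 3) in hypertrophic. The deepest library had the most genes and the shallowest the fewest of either class, although hypertrophic replicate 4, with 451013 reads on genes, had as few Hist genes as WT replicate 1, and hypertrophic replicates 3 and 4 had as few replacement genes. Sampling every library to 27227 reads would leave an expected 2.23, 3.83 and 3.71 Hist genes and 3.59, 5.17 and 4.36 replacement genes in WT, dystrophic and hypertrophic.

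**Figure D3:**
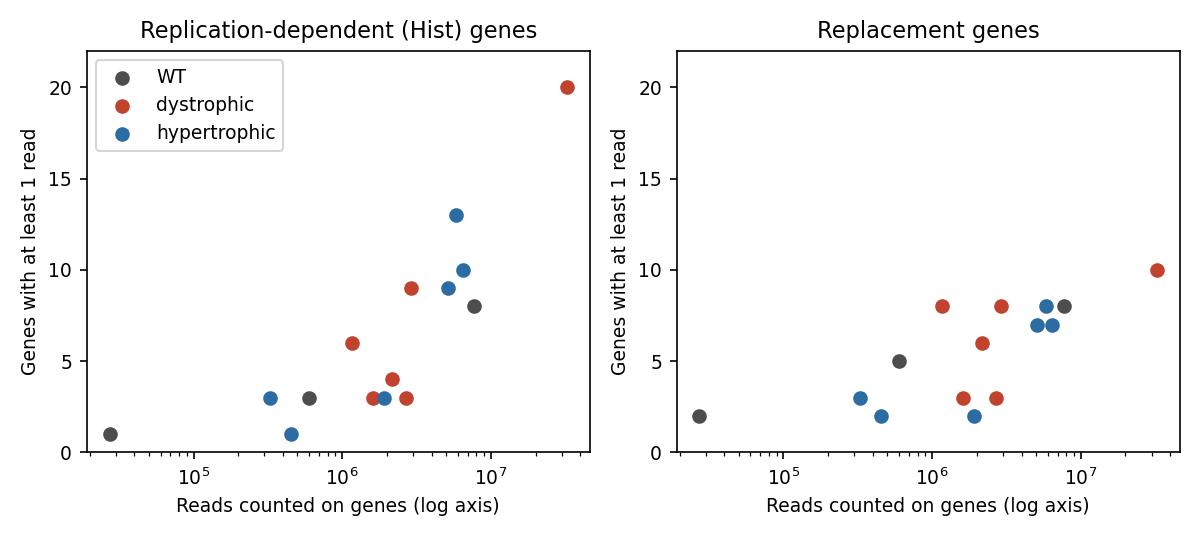
Number of Hist genes (left) and replacement genes (right) with at least 1 read in a library, against the reads counted on genes in it (logarithmic axis). Each point is 1 library, coloured by condition; the highest point, with 20 Hist genes and 10 replacement genes, is dystrophic replicate 6.

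Among the replacement genes, H3f3a and H3f3b encode the same protein, histone H3.3, which replaces H3 at active genes outside S phase. H3f3a (chromosome 1, 180800832 to 180813943, minus strand) was at 2020, 1562 and 981 CPM in WT. It had a median of 1095 CPM (514 to 1316) in dystrophic and 1081 CPM (718 to 1919) in hypertrophic. The highest value was in WT and the lowest in dystrophic, and the conditions overlapped. Fewer EVs of a given origin and less RNA per EV cannot be told apart in such bulk samples. Its exons overlap those of the antisense gene H3f3aos, and the strand setting of the counting is not given in the sources used here.

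H3f3b (chromosome 11, 116021912 to 116027962, minus strand) was at 1800, 558 and 1350 CPM in WT. The dystrophic libraries were narrow, with a median of 707 CPM (624 to 858), and the hypertrophic ones had a median of 458 CPM (315 to 1610). In hypertrophic, 5 of 6 libraries lay at or below 688 CPM and replicate 4 stood at 1610 CPM, inside the WT range. H3f3a had more reads than H3f3b in 11 of 15 libraries, and more CPM per kilobase of exon in 9 of 15. The 2 genes together held 52.9% to 100% of the replacement reads of a library.

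Of the Hist genes, Hist1h2bc (chromosome 13, 23684199 to 23692908, plus strand) encodes a core histone H2B. It was at 1800, 1831 and 793 CPM in WT, with a median of 741 CPM (201 to 2268) in dystrophic and 1335 CPM (68.7 to 2276) in hypertrophic. The lowest and the highest values were both hypertrophic, and the conditions overlapped over most of their range. The 3 matching dystrophic libraries, at 201 to 571 CPM, all lay below the 3 WT libraries, while the matching hypertrophic ones spanned 68.7 to 2276 CPM. How many of all genes separate in this way was not counted, so it is not read as a result about histone genes. With the 6 crossed libraries exchanged the dystrophic range was 201 to 2233 CPM and overlapped WT. It was 23.9% to 100% of the Hist reads of a library, and the only Hist gene found in WT replicate 1 and in hypertrophic replicate 4.

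Hist1h1c (chromosome 13, 23738808 to 23740367, plus strand) encodes the linker histone H1.2. It was at 0, 840 and 547 CPM in WT, with a median of 302 CPM (0 to 558) in dystrophic and 537 CPM (0 to 1245) in hypertrophic. It was missing from 1 library of each condition. In WT replicate 1 a count of 0 allowed up to 110 CPM, while dystrophic replicate 4 and hypertrophic replicate 4 were deep enough to limit it to a small part of its level elsewhere. In these same 2 libraries H3f3a and H3f3b were at 609 to 1610 CPM.

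**Figure D4:**
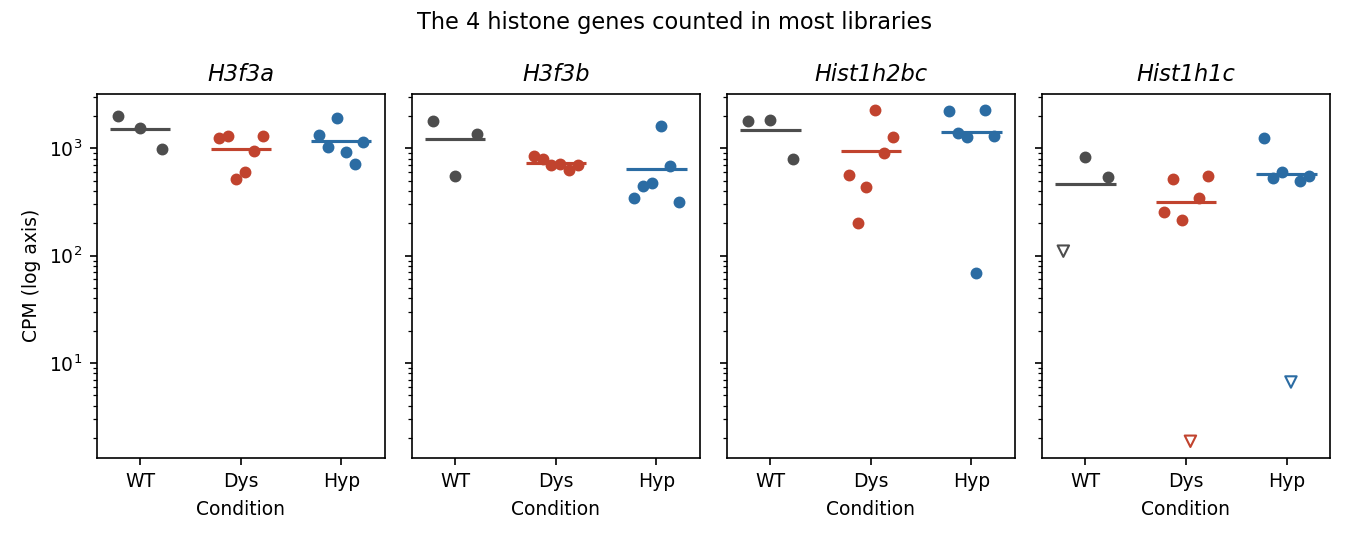
CPM of the 4 histone genes found in most libraries (logarithmic axis), by condition. Each filled point is 1 library, the bar is the mean of the condition, and an open triangle marks a library with 0 reads, drawn at the CPM that 3 reads would give; the 3 conditions overlap for every gene.

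CPM per kilobase of exon adjusts for exon length but not for windows shared between genes. On this scale Hist1h2bc was highest at a mean of 1073 CPM per kb. H3f3a followed at 334, Hist1h1c at 287, H3f3b at 268 and Hist1h4i at 173. All other histone genes were under 60 CPM per kb. Between libraries Hist1h2bc varied from 59.5 to 1968 CPM per kb and Hist1h1c from 0 to 798, so neighbours in this order did not separate beyond their spread. The lengths are of all annotated exons of a gene, which favours genes with few and short transcripts.

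The next Hist genes by number of libraries with reads, with ties ordered by mean CPM, were Hist1h4i, Hist3h2a, Hist1h2be and Hist1h4c. Hist1h2ak was found in 4 libraries, as many as Hist1h4c. Hist1h4i, an H4 gene, was at 0, 121 and 0 CPM in WT, with a median of 76.2 CPM (0 to 960) in dystrophic and 55.6 CPM (0 to 207) in hypertrophic. It had reads in 10 libraries, and its top value of 960 CPM was in dystrophic replicate 4, the library that lacked Hist1h1c. Hist3h2a, which encodes an H2A outside the main cluster, was at 0, 0 and 1.66 CPM in WT, with a median of 29.2 CPM (0 to 294) in dystrophic and 0.0774 CPM (0 to 86.3) in hypertrophic. It shares exon sequence with Trim17 on the same strand, so its reads cannot be told apart from that gene's where they overlap.

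Hist1h2be, another H2B gene, was at 0 in every WT library, with reads in 2 of 6 dystrophic libraries (17.2 and 47.8 CPM) and in 3 of 6 hypertrophic libraries (27.9, 38.2 and 374 CPM). Its annotated exons overlap those of the linker histone gene Hist1h1e on the same strand. Hist1h4c, an H4 gene, was also at 0 in every WT library, with reads in 2 of 6 dystrophic libraries (6.92 and 36.7 CPM) and in 2 of 6 hypertrophic libraries (22.7 and 115 CPM). Both were at 0 in most libraries of every condition except Hist1h2be in hypertrophic, where it was 3 of 6.

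Among the remaining replacement genes, H2afj, which encodes the H2A.J variant, was found in 6 of 6 dystrophic libraries but in 3 of 6 hypertrophic and 1 of 3 WT libraries. It was at 0, 46.4 and 0 CPM in WT, with a median of 89.6 CPM (44.8 to 359) in dystrophic and 0.195 CPM (0 to 164) in hypertrophic. The lowest dystrophic value lay below the highest value of either other condition, so the ranges overlapped. With only the 9 matching libraries it was in 3 of 3 dystrophic and 1 of 3 hypertrophic libraries, and with the 6 crossed libraries exchanged in 5 of 6 and 4 of 6.

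H2afv, which encodes an H2A.Z variant, was at 0, 68.4 and 1.66 CPM in WT, with medians of 50.05 CPM (0 to 159) in dystrophic and 11.8 CPM (0 to 178) in hypertrophic. H2afy, which encodes macroH2A1, a variant with a large added domain found on silent chromatin, was at 0, 45.2 and 156 CPM in WT, and its medians were 0 (0 to 179) and 55.9 CPM (0 to 207). H1f0, which encodes the linker histone H1.0 of differentiated cells, was at 0 in all WT libraries, with medians of 57.9 CPM (0 to 119) in dystrophic and 51.9 CPM (0 to 1250) in hypertrophic. Its top value, 1250 CPM in hypertrophic replicate 5, exceeded both H3.3 genes there. The other hypertrophic and dystrophic libraries ranged from 0 to 119 CPM.

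Summed over a class, the replacement genes were the steadier. Their sum was 3820, 2371 and 2490 CPM in WT, with a median of 2147 CPM (1487 to 2660) in dystrophic and 2362 CPM (2016 to 2656) in hypertrophic. The Hist sum was 1800, 2831 and 1342 CPM in WT, with a median of 1196 CPM (646 to 3522) in dystrophic and 2069 CPM (68.7 to 3888) in hypertrophic. The highest library was 2.57 times the lowest for replacement genes and 56.6 times for Hist genes. The Hist value rests on hypertrophic replicate 4, and without this library it was 6.02 times. The coefficient of variation over the 15 libraries was 0.231 for the replacement sum and 0.566 for the Hist sum, and 0.240 and 0.484 without hypertrophic replicate 4. For single genes it was 0.371 for H3f3a, 0.558 for H3f3b and 0.597 for Hist1h2bc, beside a median of 0.585 (0.276 to 2.57) over the 169 genes with reads in every library.

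The condition means were 1991 ± 763 (SD, n = 3), 1611 ± 1094 (n = 6) and 2207 ± 1294 CPM (n = 6) for Hist genes in WT, dystrophic and hypertrophic, and 2894 ± 804, 2072 ± 477 and 2329 ± 254 CPM for replacement genes. The Hist means differed by less than 1 SD and the conditions overlapped in both classes. The WT replacement mean was raised by replicate 1, with 104 replacement reads, and was 2431 CPM without it. The 3 dystrophic libraries with matching numbers were lower in Hist genes, at 845 ± 200 CPM (SD, n = 3), than the dystrophic mean over 6. Their values, 646 to 1046 CPM, all lay below the lowest WT library at 1342 CPM, while the matching hypertrophic libraries spanned 68.7 to 3149 CPM. Hist1h2bc is part of this sum, so the separation is not independent of the one seen for that gene. With the 6 crossed libraries exchanged the dystrophic and hypertrophic Hist means were 1759 and 2059 CPM.

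Which class was higher depended on the scale. In CPM, Hist genes were above replacement genes in 5 of 15 libraries, with a median ratio of 0.834 (0.0272 to 2.37). Per kilobase of exon they were above in 12 of 15, with a median ratio of 2.27 (0.0741 to 6.79). The mean CPM ratios were 0.735 in WT, 0.859 in dystrophic and 0.958 in hypertrophic, with SDs of 0.399, 0.772 and 0.538. Without dystrophic replicate 4 the dystrophic mean was 0.558, below that of WT. With only the matching libraries the dystrophic mean ratio was 0.388 ± 0.0253 (SD, n = 3) and the hypertrophic one 0.730 ± 0.617 (n = 3). The matching dystrophic ratios, 0.361 to 0.411, did not overlap the WT ratios of 0.471 to 1.19. This ratio has the Hist sum as its numerator, so it repeats the separation of that sum and of Hist1h2bc. The WT side includes replicate 1, with 49 Hist reads, and how many of all genes separate in this way was not counted. With the 6 crossed libraries exchanged the dystrophic ratios were 0.361 to 1.67 and overlapped them.

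**Figure D5:**
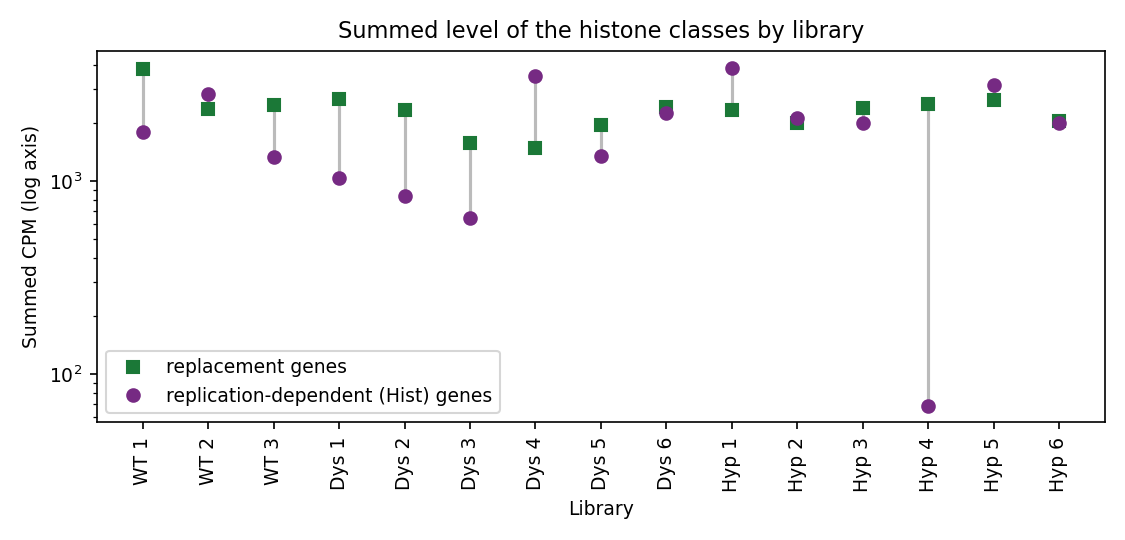
Summed CPM of the 69 Hist genes (circles) and the 18 replacement genes (squares) in each library (logarithmic axis), joined by a line. Squares lie between 1487 and 3820 CPM, whereas circles run from 68.7 CPM in hypertrophic replicate 4 to 3888 CPM in hypertrophic replicate 1.

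The comparisons between conditions asked whether EV RNA content changes with muscle loss or growth. They were made with the edgeR quasi-likelihood test over 6887 genes, of which 16 were histone genes, since the other 71 did not pass the filter on low counts. No histone gene passed an adjusted p of 0.05 in any comparison. The share of all genes that did was 0.0290% for hypertrophic against WT, 0.0145% for dystrophic against WT and 0.0145% for hypertrophic against dystrophic. At an unadjusted p under 0.05 there were 1, 2 and 1 of the 16 histone genes, compared with 8.02%, 2.02% and 12% of all genes (552, 139 and 823 genes). The 2 comparisons against WT share the WT libraries. Few genes of any kind were called, and the spread between libraries was wide, with a biological coefficient of variation of 3.04.

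For the genes found most often the log2 fold changes were smaller than or close to their standard errors (SE). H3f3a was at -0.54 (SE 1.13, edgeR adjusted p = 0.978) in hypertrophic against WT, and at -0.47 (SE 1.13) and -0.08 (SE 0.94) in dystrophic against WT and hypertrophic against dystrophic. H3f3b was at -1.38 (SE 1.32, edgeR adjusted p = 0.679), -0.65 (SE 1.34) and -0.73 (SE 1.12). Hist1h2bc was at -0.26 (SE 1.11), -0.51 (SE 1.11) and 0.25 (SE 0.92), and Hist1h1c at -0.15 (SE 1.57), -0.75 (SE 1.54) and 0.59 (SE 1.29). These SEs leave changes of several fold in either direction undetected.

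The crossed libraries decided the sign of 2 of these values. With the 6 libraries exchanged, hypertrophic against dystrophic was 0.27 (SE 1.14) for H3f3b and -0.55 (SE 1.32) for Hist1h1c. With only the 9 matching libraries it was -0.43 (SE 1.56) and 0.04 (SE 2.08). Hist1h2bc was at -2.04 (SE 1.54) in dystrophic against WT over these 9 libraries, and no histone gene was called there either.

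Over the 16 histone genes the median log2 fold change was 0.51 in hypertrophic against WT, 1.16 in dystrophic against WT and 0.09 in hypertrophic against dystrophic. Over all genes tested it was 0.66, 1.38 and -0.52. Positive values were found for 11, 10 and 8 of the 16. These medians include genes at 0 in WT, whose fitted values depend on a prior count.

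The choice of tool changed the call for 4 such genes. H1f0, Hist1h2be, Hist1h4c and Hist1h4n, an H4 gene named after its values were seen, were at 0 in all WT libraries. DESeq2 called these 4 in hypertrophic against WT and in dystrophic against WT, and no histone gene in hypertrophic against dystrophic, beside 24.5%, 21.1% and 5.17% of all genes. Hist1h4n had reads in only 1 of 6 hypertrophic and 2 of 6 dystrophic libraries, and in no hypertrophic library with matching numbers. Only 14.4% of its 50-base windows occurred in no other annotated gene. In edgeR, H1f0 had an adjusted p of 0.413 in hypertrophic against WT and 0.433 in dystrophic against WT.

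Against the WT limit of 3 reads over the 3 libraries, H1f0 was at least 239-fold higher in dystrophic and at least 220-fold higher in hypertrophic. Hist1h2be was at least 39.8-fold and 73.9-fold higher, and Hist1h4c at least 4.08-fold and 102-fold higher. Bounds were computed only for genes at 0 in WT, so their direction follows from that choice. Dystrophic replicate 6 held 3213 of the 3696 dystrophic reads of H1f0 and 559 of the 615 of Hist1h2be. Most WT reads came from WT replicate 2. Without it the bounds for H1f0 fell to 18.0-fold and 16.5-fold, those for Hist1h2be to 2.99-fold and 5.56-fold, and that for Hist1h4c in hypertrophic to 7.69-fold. Hist1h4c in dystrophic, at 1.46 CPM over the pooled libraries, was then below the WT limit of 4.77 CPM and had no bound. With the 6 crossed libraries exchanged and all WT libraries kept, the dystrophic and hypertrophic bounds were 199-fold and 247-fold for H1f0, 32.3-fold and 58.5-fold for Hist1h2be, and 93.6-fold and 10.5-fold for Hist1h4c. With only the matching libraries they were 81.7-fold and 158-fold for H1f0 and 26.0-fold and 143-fold for Hist1h2be, and Hist1h4c, at 7.15 and 20.3 CPM over the pooled libraries, lay above the WT limit of 0.359 CPM in both. For Hist1h4c the order of the conditions thus turned with the exchange. H1f0 was itself at 0 in 2 of 6 dystrophic and 3 of 6 hypertrophic libraries, 1 of them, hypertrophic replicate 6, with 6461652 reads on genes. The bounds cover counting error and not the spread between libraries.

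Hist1h4h, an H4 gene named after its values were seen, was at 0 in all 6 dystrophic libraries and had reads in 1 WT and 2 hypertrophic libraries. With the 6 crossed libraries exchanged it had reads in 1 of 6 dystrophic libraries. Its unadjusted edgeR p was 0.00825 in dystrophic against WT and 0.00912 in hypertrophic against dystrophic, which after adjustment became 0.433 and 0.123.

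Genes that act on histones or their mRNAs were counted as fixed lists, beside 53.1% of protein-coding genes with a read somewhere. Of 16 genes for 3′ processing of histone mRNA all had reads in some library, with a median of 5 per library (1 to 14). Slbp, which encodes the protein that binds the stem-loop, was found in 9 libraries at a median of 24.2 CPM (0 to 316). Snrpb and Snrpf, subunits of the Sm rings of small nuclear RNPs, were found in 12 and 9.

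All 20 histone chaperone genes were also found, with a median of 9 per library (1 to 17). Npm1 and Nap1l1, which carry core histones, had medians of 717 CPM (0 to 1726) and 343 CPM (0 to 991) and were found in 12 and 13 libraries, and Nasp, which handles H3, H4 and linker histones, in 11 libraries. Of 20 proliferation genes 18 were found, with a median of 4 per library (0 to 11). By condition 9 were found in WT, 18 in dystrophic, which holds the deepest library, and 9 in hypertrophic. Mcm7, a replication helicase subunit, was found in 7 libraries, and Mki67 and Ube2c, both expressed in dividing cells, in 6 each. In edgeR none of the 14 processing, 15 chaperone and 8 proliferation genes tested was called in either direction in any comparison.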

How the data were processed

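The methods state that total RNA was isolated from EVs, and the labels describe the RNA of the 15 sequenced libraries as poly(A) RNA. The deposited values are raw counts, the reads per gene symbol, which the authors did not normalize or filter. The submitters' processing notes name TopHat, HTSeq, DESeq and build mm10. The methods give the TopHat version, while the versions of HTSeq and DESeq, the annotation and the strand setting are not given in the sources used here. The labels name a stranded mRNA kit and the methods another one, and the methods state 50-base reads and amplification.

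The 5 summary entries per library were dropped, and CPM was computed over all genes. Depth was 27227 to 32563362 reads on genes, and a count of 0 was taken to allow 3 reads. Replicate numbers follow accession order and only name libraries. Each library is a pool of 2 to 3 mice, and nothing says that the pools share no animals. The methods name fewer mice per strain than 6 separate pools of dystrophic mice need, so pools may share animals, and p-values measure only the spread between these libraries.

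Differential expression used edgeR 4.0.16 (limma 3.58.1, R 4.3.3) with TMM, filterByExpr and a quasi-likelihood fit to all 15 libraries without covariates. P-values were Benjamini-Hochberg adjusted over all 6887 genes, and SEs were taken from the F statistic. The procedure was run on simulated data with a much smaller spread between libraries than here. That run therefore does not show its power or error rate at the spread of these libraries. DESeq2 1.42.0 was an alternative, and 645 of its adjusted p-values stayed missing. Other alternatives were library size without TMM, TMMwsp, no filter, only the compared conditions, leaving out mitochondrial and hemoglobin genes, exchanging the 6 crossed libraries, using the 9 matching ones, and leaving out each library in turn. Positions, exon lengths, stem-loops and 50-base windows came from GENCODE M21 transcripts (Python 3.11.15), and windows were compared with annotated transcripts only.

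Genes named are those with reads in at least 12 libraries, the 6 of each class found in most libraries (ties in order of mean CPM, which left out Hist1h2ak, H2afz and H2afx), any passing an adjusted p of 0.05 (none), and 3 of each list of related genes. Others are marked where named or only counted. The members and lists were chosen with earlier results of these data known.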

Additional observations from a re-analysis of the deposited data

Results flagged for a closer look

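In 12 of 34 groups of 6 libraries, the highest value stood apart by a gap past Dixon's critical share of the group's range. For normally distributed values chance gives about 1 in 20 groups. Many of these groups hold several zeros, so that rate does not apply to them, and 12 of 34 is not read as an excess. The groups also share libraries, so they are not independent. Dystrophic replicate 6, the deepest library, had 20 Hist genes, the other dystrophic libraries 3 to 9. Dystrophic replicate 4 had a Hist to replacement ratio of 2.37 (others 0.361 to 0.936) and 960 CPM of Hist1h4i (others 0 to 215). Dystrophic replicate 1 held 47.8 CPM of Hist1h2be (0 to 17.2), 36.7 CPM of Hist1h4c (0 to 6.92) and 179 CPM of H2afy (0 to 40.5).

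Among hypertrophic libraries, replicate 4 was at 1610 CPM of H3f3b (others 315 to 688). Replicate 5 was at 1250 CPM of H1f0 (0 to 111) and 374 CPM of Hist1h2be (0 to 38.2). Replicate 1 was at 86.3 CPM of Hist3h2a (0 to 19.7) and 115 CPM of Hist1h4c (0 to 22.7), and replicate 6 at 164 CPM of H2afj (0 to 28.4). The cause was not tested.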

How the results depend on the processing

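No paired analysis was possible because the labels carry no replicate numbers that link libraries of different conditions. The fold changes of H3f3a, H3f3b, Hist1h2bc and Hist1h1c were recomputed under 276 alternatives: 260 kept their direction, 16 turned and none passed the threshold (smallest adjusted p 0.575). H3f3a in hypertrophic against dystrophic turned to 0.23 with DESeq2, 0.24 without TMM, 0.020 with TMMwsp and 0.025 with only the compared conditions, and ranged from -0.27 to 0.14 with single libraries left out, turning without dystrophic replicate 1 or 6 or hypertrophic replicate 4 or 5. H3f3b turned to 0.27 and Hist1h1c to -0.55 with the crossed libraries exchanged. In hypertrophic against WT, Hist1h2bc turned to 0.0089 with DESeq2 and ranged from -0.46 to 0.17, turning without WT replicate 2. Hist1h1c turned to 0.28 with DESeq2 and 0.29 without TMM, and ranged from -0.73 to 0.43, turning without WT replicate 2 (0.43) or hypertrophic replicate 4 (0.11). The cause was not tested.

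Genes called by edgeR, 2 in hypertrophic against WT, 1 in dystrophic against WT and 1 in hypertrophic against dystrophic, became 1528, 1315 and 323 with DESeq2, and 0 in each without a filter or without mitochondrial and hemoglobin genes. In dystrophic against WT they became 3 without TMM, 2 with labels exchanged and 3 with the 9 matching libraries, and in hypertrophic against dystrophic 0 with labels exchanged, with the 9 libraries or with only the compared conditions. With single libraries left out they ranged from 1 to 3, 1 to 2 and 0 to 2. Histone genes called were 0 in each comparison under every alternative (0 to 0 with single libraries left out) except DESeq2, with 4, 4 and 0.

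With classes set by the annotated stem-loop in place of the symbol, Hist1h2bc and the other Hist genes without one moved to the other class. The mean Hist sum was then 529 CPM in WT, 685 CPM in dystrophic and 793 CPM in hypertrophic, which puts WT lowest. The replacement sum was 4356, 2998 and 3742 CPM in WT, dystrophic and hypertrophic. With mitochondrial and hemoglobin genes left out of the reads that CPM is computed over, the replacement sum was 3981, 2587 and 2828. The ratio of Hist to replacement genes was 1.93, 2.27 and 2.29 per kilobase. The other alternatives listed for these means, single libraries left out aside, moved them by less than 1 SD. The bounds for genes at 0 in WT without WT replicate 2 (18.0 and 16.5 for H1f0, 2.99 and 5.56 for Hist1h2be, none and 7.69 for Hist1h4c), the bounds with crossed libraries exchanged or left out, and the class sums without hypertrophic replicate 4 were added after the data were seen. Depth limits what a missing histone gene means in WT replicate 1, where 0 reads allow 110 CPM.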
